A study of Homo sapiens with 8 samples.

Results

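The genes that make serine from glucose and pass its carbon into the folate and methionine cycles were described in 786-O cells exposed to pentamidine. The 10 genes were PHGDH, PSAT1, PSPH, SHMT1, SHMT2, MTHFD1, MTHFD2, MTHFD1L, ALDH1L2 and MAT2A. Every probe set that the platform annotation assigns to one of them alone was taken, which gave 14 of 22277 probe sets on the first of 2 array types and 7 of 22665 on the second. All 10 genes had at least 1 probe set, 8 of them on the first type, while the second covered 6.

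786-O is an established human clear cell renal carcinoma line without functional VHL, and pentamidine, a diamidine drug given for protozoal disease and Pneumocystis pneumonia, binds AT-rich DNA. One group of cultures received 25 μM pentamidine for 6 h and the other the DMSO vehicle for the same time, with no other agent named. Each array type held 2 DMSO and 2 pentamidine arrays, which the labels call biological duplicates of this single line. They do not say whether both array types carried the same RNA, so each type was tested alone, and a p-value measures only the spread between its arrays.

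Serine synthesis branches off glycolysis. PHGDH oxidises a glycolytic phosphoglycerate, PSAT1 transaminates the product and PSPH removes the phosphate. SHMT1 in the cytosol and SHMT2 in mitochondria then convert serine to glycine and load the released carbon onto tetrahydrofolate, and the carbon is oxidised, reduced or released as formate for purine, thymidylate and methionine synthesis. Many of these genes are known targets of the stress-induced transcription factor ATF4.

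Stretches of promoter are shown for 3 members, because regulation of this pathway is usually described at the level of transcription. The sequence table used here held 7 of the 10 members. PSAT1 and MTHFD2 are given by the 250 bases before the annotated start, in RefSeq assembly GRCh38.p14, plus strand, at chr9:78296875-78297124 and chr2:74198365-74198614, with CCAAT boxes in capitals. MTHFD1L is given by 29 bases at chr6:150866347-150866375, plus strand, with the ATF4 and C/EBP composite motif in capitals, 121 bases before the most downstream of 3 neighbouring starts.
PSAT1: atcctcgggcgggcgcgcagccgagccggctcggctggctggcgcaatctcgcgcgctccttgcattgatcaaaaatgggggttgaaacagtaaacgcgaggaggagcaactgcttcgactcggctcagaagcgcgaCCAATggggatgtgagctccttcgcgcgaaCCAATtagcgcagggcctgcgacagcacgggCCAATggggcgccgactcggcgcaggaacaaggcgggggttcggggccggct
MTHFD2: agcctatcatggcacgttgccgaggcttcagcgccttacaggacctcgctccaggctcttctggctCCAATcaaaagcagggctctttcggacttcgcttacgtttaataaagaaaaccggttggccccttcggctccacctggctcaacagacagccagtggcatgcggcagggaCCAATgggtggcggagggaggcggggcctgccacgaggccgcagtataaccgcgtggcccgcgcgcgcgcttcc
MTHFD1L: ccgccggctcTGATGCAATcgcgccgggc
CCAAT, searched on both strands, occurred 3 times in the PSAT1 stretch and 2 times in that of MTHFD2. It was found in at least 1 stretch of all 7 members, and in 32.0% of all 35116 promoter stretches of the same 250 bases before a start. The composite motif TGATGNAAT, also searched on both strands, was found in MTHFD1L alone among the 7, and in 0.889% of all stretches. The E-box CACGTG was found in MTHFD1 and MTHFD1L, and in 6.34% of all stretches. Members were counted as genes, and MTHFD1L had several stretches, not all of which held each motif. The percentages count single stretches, so they are not a like measure. No match of one motif overlapped a match of another, and a match is a description of these letters, not a site.

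The arrays were first checked against the labelled cells. Of 11 markers chosen for this renal carcinoma line, all 11 passed the level filter on the first array type and 9 lay above its median level. Leukocyte and endothelial markers passed in 1 of 4 and 1 of 5, erythroid markers in 0 of 3 and stromal markers in 3 of 5, with summed levels of 15.9 to 86.0, 41.4 to 126.8, 10.9 to 68.1 and 1143 to 1264 units and no marker listed at 0. The second type held 3 of the 11 line markers, of which 2 passed. It held 1 endothelial, 2 stromal and 1 erythroid marker, and the erythroid one passed above the median level, at 203 to 388 units. Every array of a type had the same trimmed mean intensity, 500.2 and 500.1 units. Over all probe sets, log2 intensities of array pairs correlated at 0.972 to 0.982 within the first type and at 0.829 to 0.860 within the second.

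The question put to the arrays was how the level of these transcripts after 6 h in the drug compares with that in its vehicle. No serine or one-carbon probe set passed the test on either array type. ALDH1L2, the mitochondrial enzyme that releases carbon dioxide from formyl-tetrahydrofolate while making NADPH, lay farthest from DMSO, 5.00-fold lower in pentamidine on the scale of intensity plus 16, with a pentamidine mean under the level the test's filter asked for. On the first type, a SHMT2 and a MAT2A probe set also measured lower in both pentamidine arrays. A PSAT1 and another SHMT2 probe set measured higher in both. On the second, SHMT1 and MTHFD1L probe sets measured lower in both. Lower were thus 2 of 12 member probe sets tested on the first type (15.7% of all) and 3 of 5 on the second, with ALDH1L2 (16.7%). Higher were 2 of 12 (19.4% of all) and 0 of 5 (17.4%). PSAT1, MTHFD1 and MTHFD2 differed from DMSO by at most 1.11-fold in their probe sets at percentile 90.2 or higher.

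The test was limma on log2 of intensity plus 16, over all probe sets with a mean at or above the 30th percentile of their table, with Benjamini-Hochberg adjustment over the whole table and a threshold of 0.05. On the first array type 12 of the 14 member probe sets were tested and 0 passed, with limma adjusted p values of 0.926 to 0.993. Over that whole table, 0% of 15550 probe sets passed, and an unadjusted p under 0.05 was reached by 1 member probe set of 12 and by 4.80% of all. On the second type 5 of 7 were tested and 0 passed, with limma adjusted p values of 0.410 to 0.999. There 0% of 15804 passed, and an unadjusted p under 0.05 was reached by 1 of 5 member probe sets and by 7.04% of all. That probe set was ALDH1L2, which met the filter through its DMSO arrays, with a pentamidine mean under the filter level. A limma fit that lets the variance follow the level also called 0 member probe sets on either type, against 0% and 0.00633% of all probe sets. Its unadjusted p was under 0.05 for 1 of 12 (5.13% of all) and for 1 of 5 (5.1% of all). The one on the second type was again ALDH1L2.

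**Figure D1:**
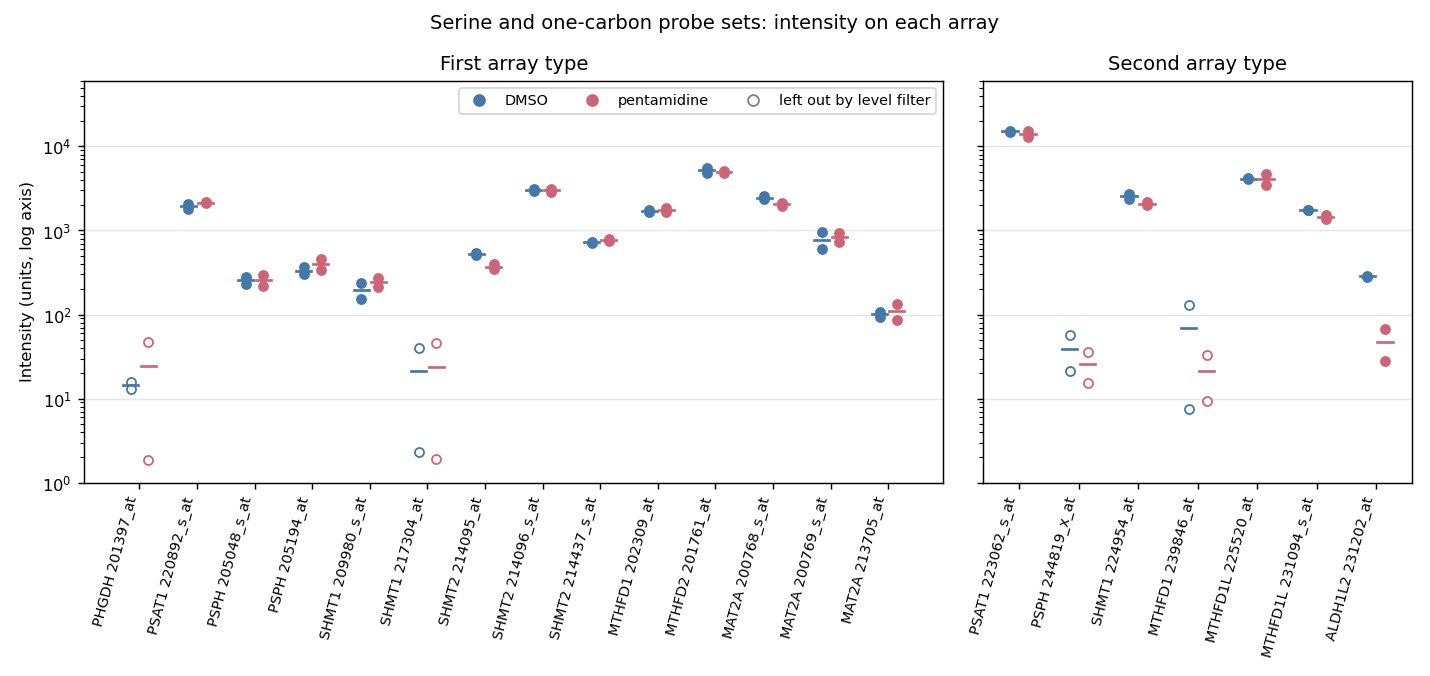
Intensity (log axis) of all 21 member probe sets on each array, with DMSO in blue and pentamidine in red. Points are arrays, short lines are the means of 2 arrays, and open points mark the 4 probe sets left out by the level filter. The ALDH1L2 points at 281 and 288 units in DMSO stand apart from those at 66.7 and 27.7 in pentamidine.

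PHGDH, the first and committed enzyme of serine synthesis, was at the bottom of the scale. Its probe set 201397_at read 15.6 and 13.1 units on the DMSO arrays against 47.5 and 1.88 on the pentamidine arrays. Both DMSO arrays lay between the pentamidine arrays, and the probe set, at percentile 27.4 of its table, was left out by the filter and not tested. Its log2 difference was 0.15 with the offset of 16 and -0.37 with an offset of 1, so it has no direction here.

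PSAT1, the phosphoserine aminotransferase, was bright on both array types. Probe set 220892_s_at read 1803 and 2066 units on the DMSO arrays against 2133 and 2167 on the pentamidine arrays on the first type. Both pentamidine arrays lay above both DMSO arrays, by a log2 difference of 0.15 (95% interval -0.28 to 0.59, n = 2 per group). Probe set 223062_s_at read 14938 and 15406 units on the DMSO arrays against 15063 and 12887 on the pentamidine arrays on the second type, a log2 difference of -0.12 (95% interval -0.98 to 0.74) with overlapping groups. The PSAT1 fold changes thus pointed in opposite directions, each smaller than its interval. With the variance trend the intervals were -0.12 to 0.43 and -0.39 to 0.14.

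PSPH, the phosphatase that completes serine synthesis, did not separate the groups. Probe set 205194_at read 305 and 363 units on the DMSO arrays against 343 and 452 on the pentamidine arrays (log2 difference 0.23, 95% interval -0.34 to 0.80). Probe set 205048_s_at read 229 and 282 units on the DMSO arrays against 220 and 299 on the pentamidine arrays, a log2 difference of 0.02 that turned to -0.01 after quantile normalization or median centring. For both, the lower array of each group carried replicate number 1. On the second type 244819_x_at read 57.7 and 21.0 units on the DMSO arrays against 15.5 and 36.0 on the pentamidine arrays and was left out by the filter. The RefSeq gene table lists pseudogenes of PSPH (1), PSAT1 (4), MTHFD2 (7), SHMT1 (1), MTHFD1 (1) and MAT2A (1), and hybridisation of their transcripts to these probe sets was not tested.

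SHMT2, the mitochondrial serine hydroxymethyltransferase, was measured by 3 probe sets of the first array type with unlike values. Probe set 214095_at read 535 and 505 units on the DMSO arrays against 350 and 396 on the pentamidine arrays. Both pentamidine arrays lay below both DMSO arrays, by a log2 difference of -0.47 (95% interval -0.90 to -0.03, n = 2 per group, limma unadjusted p = 0.0398 and adjusted p = 0.926). Of all probe sets tested on this type, 736 of 15550 lay as far below DMSO or farther. Probe set 214096_s_at, at percentile 94.3 against 73.8 for 214095_at, read 3116 and 2984 units on the DMSO arrays against 2885 and 3127 on the pentamidine arrays, a log2 difference of -0.02 (95% interval -0.44 to 0.39), and the pentamidine arrays enclosed the DMSO arrays. Probe set 214437_s_at read 706 and 734 units on the DMSO arrays against 751 and 790 on the pentamidine arrays, a log2 difference of 0.10 (95% interval -0.31 to 0.50), with both pentamidine arrays above. The difference between the SHMT2 probe sets was not tested.

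SHMT1, the cytosolic enzyme of the same reaction, had values of opposite sign on the array types. On the first, 209980_s_at read 155 and 239 units on the DMSO arrays against 211 and 273 on the pentamidine arrays, a log2 difference of 0.29 (95% interval -0.43 to 1.02) with overlapping groups. This value was 0.0074 without DMSO replicate 1 and 0.58 without DMSO replicate 2. On the second, 224954_at, at percentile 92.8 of its table, read 2391 and 2715 units on the DMSO arrays against 2010 and 2172 on the pentamidine arrays, with both pentamidine arrays lower (log2 difference -0.28, 95% interval -1.14 to 0.57). Neither value passed, with limma adjusted p values of 0.929 and 0.988. The remaining probe set, 217304_at, read 40.5 and 2.32 units on the DMSO arrays against 45.5 and 1.94 on the pentamidine arrays and was left out by the filter: its replicate 1 arrays were the higher ones in both groups.

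MTHFD1, the cytosolic trifunctional enzyme that interconverts the folate one-carbon units, read 1752 and 1652 units on the DMSO arrays against 1862 and 1656 on the pentamidine arrays by 202309_at. The groups overlapped, and the log2 fold change was 0.05 (95% interval -0.39 to 0.48, or -0.24 to 0.33 with the variance trend). Its probe set on the second type, 239846_at, read 7.51 and 131.6 units on the DMSO arrays against 9.33 and 33.2 on the pentamidine arrays. That probe set spread more within DMSO than between the groups and was left out by the filter.

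MTHFD2, the mitochondrial dehydrogenase and cyclohydrolase that is low in most adult tissues and high in many tumours, was bright in both groups. Probe set 201761_at read 4801 and 5588 units on the DMSO arrays against 4788 and 5038 on the pentamidine arrays. The groups overlapped, at a log2 difference of -0.08 (95% interval -0.52 to 0.37, or -0.32 to 0.16 with the variance trend).

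MTHFD1L, the mitochondrial synthetase that releases formate for export to the cytosol, had probe sets on the second array type alone. Probe set 231094_s_at read 1776 and 1747 units on the DMSO arrays against 1385 and 1537 on the pentamidine arrays. Both pentamidine arrays lay below both DMSO arrays, by a log2 difference of -0.27 (95% interval -1.11 to 0.57, or -0.71 to 0.17 with the variance trend, limma adjusted p = 0.988). The other, 225520_at, read 4132 and 4166 units on the DMSO arrays against 3476 and 4708 on the pentamidine arrays. Its pentamidine arrays enclosed the DMSO arrays, and its log2 fold change of -0.04 turned to 0.02 after quantile normalization.

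ALDH1L2 was measured by a single probe set, 231202_at, on the second array type. It read 281 and 288 units on the DMSO arrays against 66.7 and 27.7 on the pentamidine arrays. Both pentamidine arrays lay far below both DMSO arrays, and the pentamidine arrays also differed from each other, by 0.92 on the log2 scale against 0.03 for the DMSO arrays. The log2 fold change was -2.32 (95% interval -3.60 to -1.05, n = 2 per group), with a limma unadjusted p of 0.00794 and an adjusted p of 0.410. With the variance trend, which widens intervals at this level, it was -4.34 to -0.31 and the limma adjusted p was 0.902. The fold depended on the offset, at -2.69 with an offset of 1 and -1.67 with 64. The pentamidine mean lay at percentile 20.6 of the table, under the filter level of 57.5 units, so the probe set was tested through its DMSO arrays alone and the size of its fold is poorly measured. Against the filter level itself, the DMSO mean was 4.09-fold higher. In 1303 of the 15804 probe sets tested there, the pentamidine mean alone was likewise under that level. The probe set stood at percentile 54.2 of its table by mean level, and 99 of the 15804 probe sets tested there lay as far below DMSO or farther. Changes of 1.5-fold or more below DMSO were found for 1 of the 5 member probe sets tested and for 16.8% of all on this array type.

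MAT2A makes S-adenosylmethionine, the methyl donor, outside the liver. It had 3 probe sets on the first type. Probe set 200768_s_at read 2570 and 2349 units on the DMSO arrays against 1941 and 2139 on the pentamidine arrays. Both pentamidine arrays were lower, by a log2 difference of -0.27 (95% interval -0.70 to 0.16, limma adjusted p = 0.926). With the variance trend the interval was -0.54 to 0.00384. Probe set 200769_s_at read 603 and 954 units on the DMSO arrays against 726 and 932 on the pentamidine arrays (log2 difference 0.11, 95% interval -0.66 to 0.89). Probe set 213705_at read 107 and 94.7 units on the DMSO arrays against 85.9 and 134 on the pentamidine arrays (log2 difference 0.08, or -0.03 after quantile normalization). In both of these the groups overlapped. Without DMSO replicate 1, 200769_s_at was at -0.21 and 200768_s_at at -0.20. Without DMSO replicate 2, they were at 0.44 and -0.33. Omitting pentamidine replicate 1 gave 0.29 and -0.20, and omitting pentamidine replicate 2 gave -0.06 and -0.34. The difference between the probe sets was not tested.

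**Figure D2:**
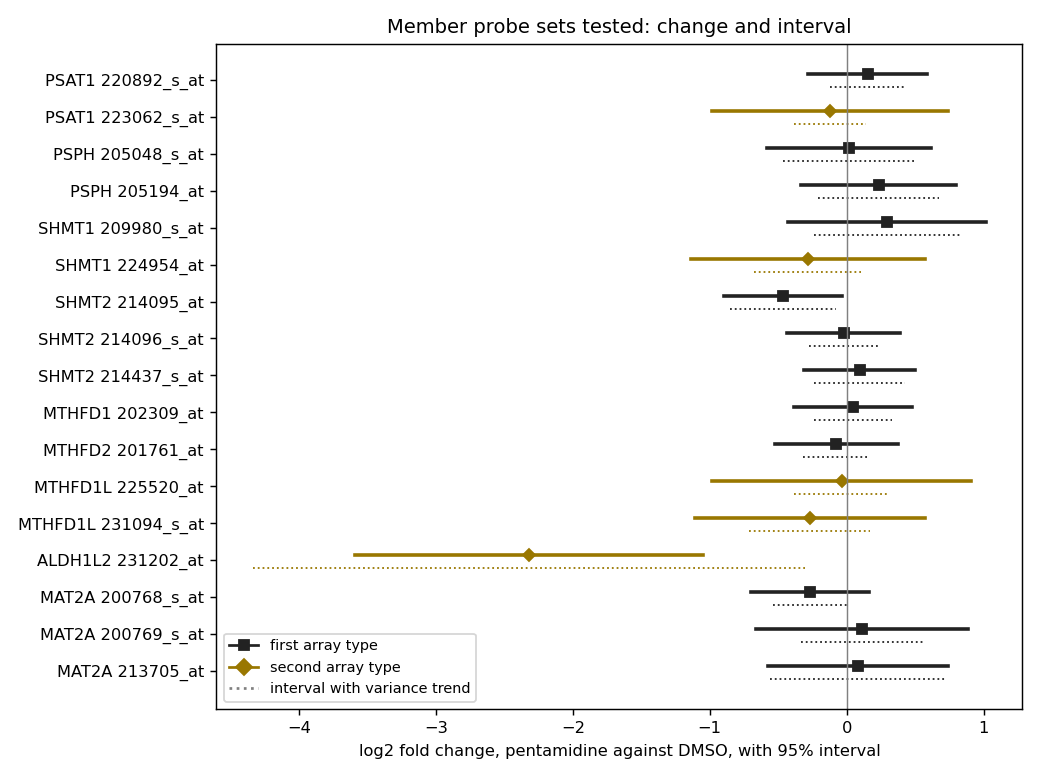
Log2 fold change of pentamidine against DMSO for the 17 member probe sets tested, with 95% intervals of the test (solid) and with a variance trend (dotted). Only the intervals of ALDH1L2 231202_at and SHMT2 214095_at leave out 0 in both fits. The pentamidine mean of ALDH1L2 was under the filter level.

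As a group, member probe sets lay on both sides of DMSO on the first array type. Of the 12 probe sets tested, 8 lay above and 4 below DMSO, which became 6 and 6 after quantile normalization and 5 and 7 without pentamidine replicate 2. The other 2, of PHGDH and SHMT1, were near background and are given no direction. The median log2 fold change was 0.06, both over the 12 tested and over all 14. Over all probe sets tested it was 0.02, and 53.9% of these lay above DMSO. Both pentamidine arrays lay above both DMSO arrays for 2 of the 12 tested, PSAT1 220892_s_at and SHMT2 214437_s_at, and for 19.4% of all. Both lay below for 2 of 12, SHMT2 214095_at and MAT2A 200768_s_at, and for 15.7% of all.

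On the second array type all 5 member probe sets tested lay below DMSO, of which MTHFD1L 225520_at turned above after quantile normalization and without pentamidine replicate 1. The 2 untested, of PSPH and MTHFD1, are given no direction. The median was -0.27 over the 5 tested and -0.28 over all 7, against 0.01 over all probe sets tested. Of all probe sets tested, 51.1% lay above DMSO. Both pentamidine arrays lay below both DMSO arrays for 3 of the 5 tested, SHMT1 224954_at, MTHFD1L 231094_s_at and ALDH1L2 231202_at, and for 16.7% of all. ALDH1L2 was among the 5 only through its DMSO arrays, since its pentamidine mean was under the filter level. The 7 probe sets come from 6 genes and 4 arrays, and 2 of them were under the filter, so the direction is a description with no test. Control ratios used to judge RNA quality were lower in both pentamidine arrays of this type. The ratio of the 3′ to the 5′ control probe set was 0.843 and 0.806 in DMSO and 0.716 and 0.677 in pentamidine for GAPDH, and 1.47 and 1.27 against 1.23 and 1.21 for ACTB. Its part in the lower member values was not tested, while both ratios overlapped between the groups of the first type.

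**Figure D3:**
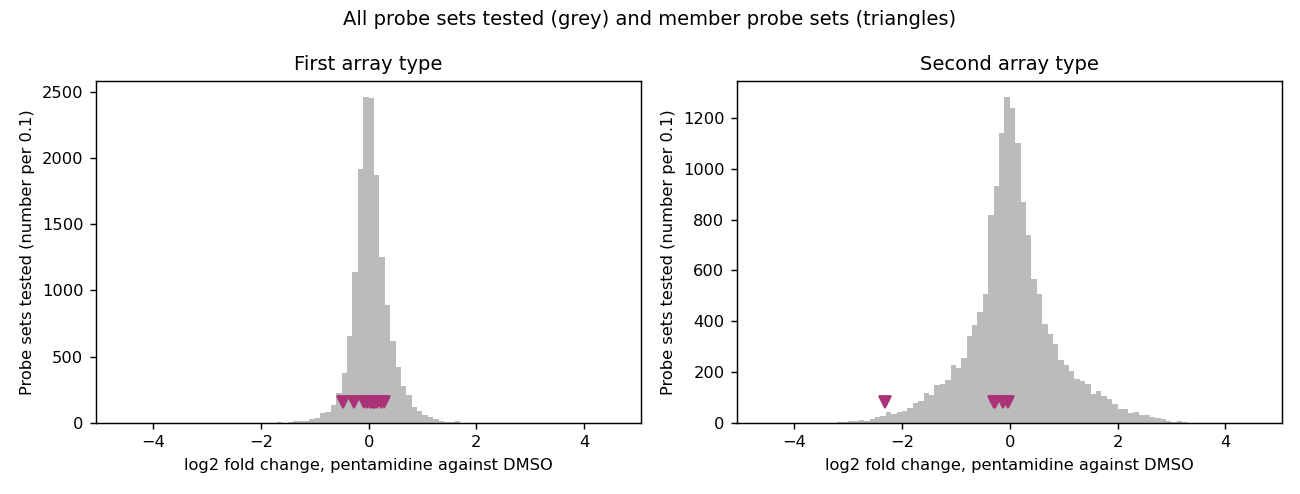
Histogram of the log2 fold changes of all probe sets tested on each array type (grey, number per bin of 0.1), with the member probe sets as triangles. Farthest from 0 lie SHMT2 214095_at at -0.47 on the first type and ALDH1L2 at -2.32 on the second, whose distribution is the wider one.

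The precision differed between the array types. On the first type the 95% interval lay inside a 2-fold change in either direction for 11 of the 12 member probe sets tested, against 71.5% of all probe sets tested, and for 12 of 12 with the variance trend, against 70.4%. On the second type it did so for 2 of 5, against 8.55% of all, and for 4 of 5 with the trend, against 27.2%. The exception under the trend was ALDH1L2. Intervals that include 0 do not show that a level was the same in both groups.

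**Figure D4:**
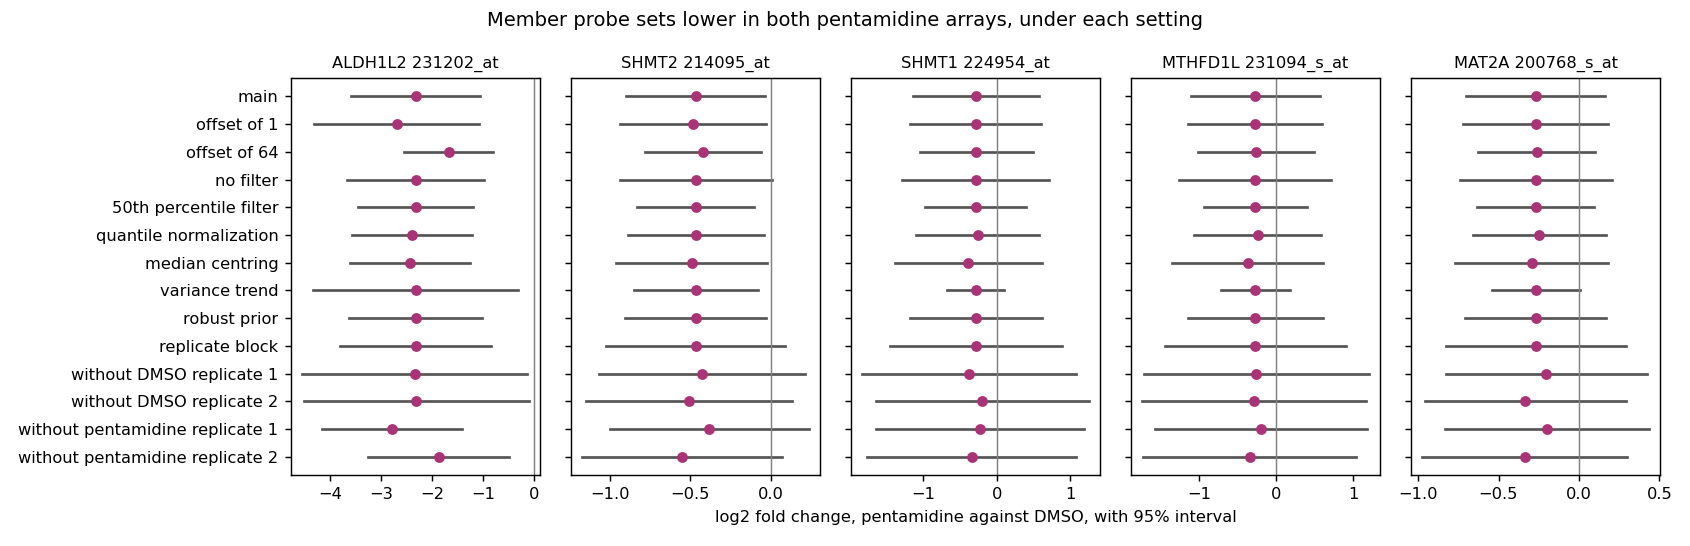
Log2 fold change and 95% interval of 5 member probe sets that lay lower in both pentamidine arrays, under each processing setting (one horizontal line per setting). All points lie below 0, which follows from this choice of probe sets for every setting except quantile normalization and median centring. For ALDH1L2 they range from -2.78 to -1.67.

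The other genes of serine, glycine, folate and methionine metabolism and their regulators were read from the same fits. Of 64 genes in 5 lists, 1 probe set per gene (the brightest on average), 54 were tested on the first type. Of these 27 lay above and 27 below DMSO, 0 passed in either direction, and their median log2 fold change was 0.00, as it was over all 9120 genes tested. On the second type 16 were tested, 7 above and 9 below with a median of -0.04, and 0 passed, against a median of -0.01 over 6994 genes.

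In the folate cycle list, 5 of 10 genes of the first type exceeded DMSO (median -0.01). The folate receptor FOLR1 read 707 and 1386 units on the DMSO arrays against 1229 and 1217 on the pentamidine arrays, and thymidylate synthase TYMS 6653 and 6425 in DMSO and 6008 and 6176 in pentamidine. Methionine cycle and transsulfuration genes lay above in 8 of 12 (median 0.05). Methionine synthase MTR, which takes a methyl group from folate, read 551 and 624 units on the DMSO arrays against 438 and 515 on the pentamidine arrays (log2 difference -0.29). AHCYL2, a relative of S-adenosylhomocysteine hydrolase, had 0.38. On the second type another MTR probe set gave 0.17, against a negative value on the first.

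Among genes of glycine cleavage and serine handling, 5 of 13 lay above DMSO (median -0.03) on the first type. Within them the glycine cleavage genes AMT and GLDC differed in direction. AMT read 21.6 and 31.0 units on the DMSO arrays against 51.0 and 52.0 on the pentamidine arrays (log2 difference 0.68, 95% interval 0.19 to 1.18). GLDC read 61.0 and 36.5 units on the DMSO arrays against 15.9 and 26.9 on the pentamidine arrays (log2 difference -0.78, 95% interval -1.52 to -0.04). The groups did not overlap for either gene, both were dim, and neither passed, with limma adjusted p values of 0.926. Genes that spend one-carbon units on purines and thymidylate lay above in 4 of 9 (median -0.01), with PFAS at -0.40 and GART at 0.22.

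Of the regulators of serine synthesis genes, 5 of 10 lay above DMSO on the first type (median -0.01), with CEBPB at -0.34 and MYC at 0.33. ATF4 itself had a log2 difference of 0.14 (95% interval -0.27 to 0.56). ASNS, an ATF4 target that makes asparagine and is counted in this list, had -0.17 (95% interval -0.60 to 0.27). Both were taken from the list for their known role and not by the rule for naming. Also outside that rule, DDIT3 had 0.12, NFE2L2 0.10, TRIB3 0.01, CEBPG -0.04 and KEAP1 -0.23. On the second type EIF2AK3, the endoplasmic reticulum stress kinase PERK, read 186 and 136 units on the DMSO arrays against 44.7 and 21.7 on the pentamidine arrays (log2 difference -1.87, 95% interval -3.06 to -0.69, limma adjusted p = 0.447). Its pentamidine mean also lay under the filter level, at percentile 11.4, and the DMSO mean was 2.38-fold above that level. Its probe set on the first type read 943 and 1142 units on the DMSO arrays against 817 and 1165 on the pentamidine arrays, a log2 difference of -0.09. EIF2AK4, the amino acid sensor kinase GCN2, had -0.05 on the second type.

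On that array type 1 of 4 folate cycle genes exceeded DMSO (median -0.28), with FTCD at -1.35 (95% interval -4.21 to 1.51) and QDPR at -0.37. FTCD read 192 and 219 units on the DMSO arrays against 196 and 19.3 on the pentamidine arrays, so its pentamidine arrays stood apart from each other. Methionine cycle genes lay above in 2 of 2, with MTAP at 0.07, and glycine and serine genes in 4 of 5 (median 0.04), with SRR at -0.32 and SLC1A4 at 0.28. Genes of purine synthesis lay below in 2 of 2, with PPAT at -0.32 and GART at -0.11. Probe sets of the first type had the opposite sign for PPAT (0.28), GART (0.22), QDPR (0.03) and SLC1A4 (-0.03). Those for MTAP (0.21) and SRR (-0.02) had the same sign. Regulators lay below in 3 of 3 (median -0.05).

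**Figure D5:**
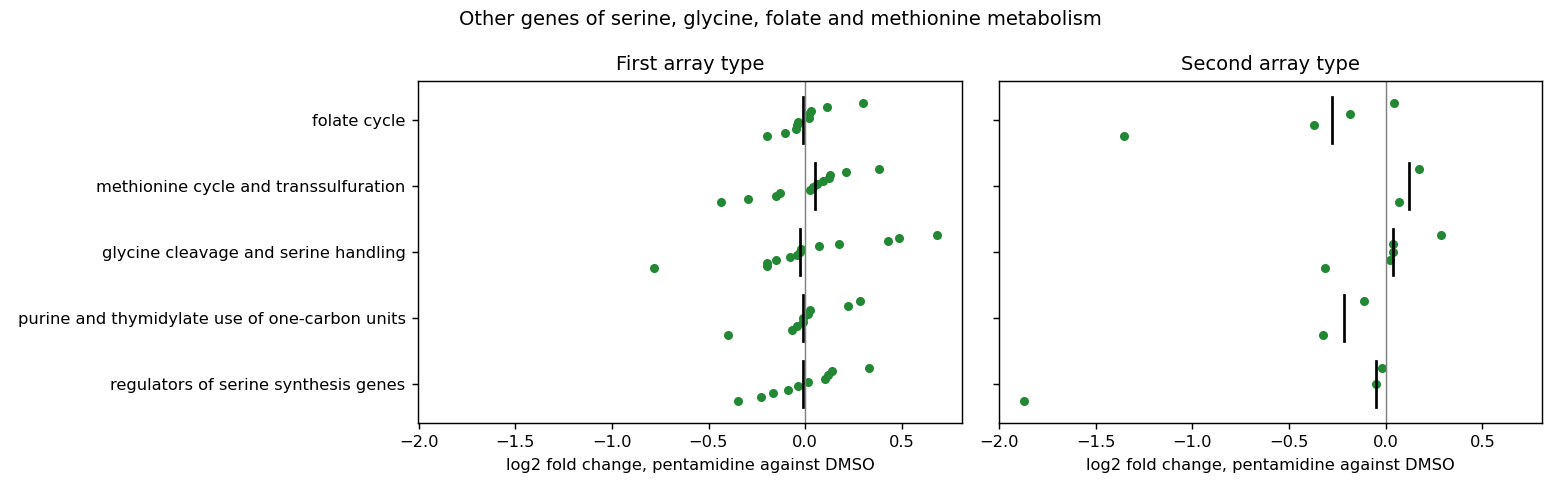
Log2 fold change of each tested gene in 5 lists of serine, glycine, folate and methionine metabolism on each array type. Each point is a gene and the black line is the median of its list, which lies between -0.28 and 0.12. EIF2AK3 at -1.87 and FTCD at -1.35 on the second type lie farthest from 0.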

How the data were processed

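Biotin-labelled cRNA of 786-O cells was measured on Affymetrix arrays of 2 types, per the labels' protocols. The tables the authors deposited hold 1 linear intensity per probe set and array; the submitters' processing notes name Affymetrix Expression Console, version and algorithm not given in the sources used here. Control probe sets (62 and 88) were left out. After adding 16 and taking log2, the test used the 15550 and 15804 probe sets whose mean reached the 30th percentile of their table.

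Each array type had its own limma 3.58.1 fit (lmFit, eBayes, R 4.3.3) of treatment alone, with a Benjamini-Hochberg threshold of 0.05. An exact 2-sided test of 2 arrays against 2 cannot go below 0.333 and was not made. The number of arrays limits the precision.

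Of the probe sets other than controls, 19724 and 13582 carried a single gene symbol in the platform annotation, 568 and 212 carried several, and 1923 and 8783 none. Symbols were updated by gene ID to RefSeq, which 19707 and 13542 matched. Members, lists and tests were chosen with earlier results of these data known. All member probe sets are named; of each wider list and type, the rule named genes past the threshold, or else the 2 most extreme by moderated t. No genes of like pattern were sought, since 4 arrays are too few for a correlation. The fit was run on simulated data as a check on the size of recovered fold changes. The changes were placed in bright probe sets only, which leaves out levels like that of ALDH1L2. Alternatives covered the offset, the filter, quantile normalization, median centring, a robust prior, a variance trend, the replicate number as block, a threshold of 0.10, the choice of probe set per gene and the omission of each array.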

Additional observations from a re-analysis of the deposited data

How the results depend on the processing

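No alternative brought a member probe set or a gene of the wider lists past the threshold. The count of probe sets past it in the whole table stayed at 0 on the first array type, and on the second it was 1 with the variance trend and 0 otherwise, with the looser threshold included. The ALDH1L2 log2 fold change ranged from -2.78 without pentamidine array 1 and -1.86 without pentamidine array 2 to -1.67 with an offset of 64. Under the alternatives that kept all arrays, its limma adjusted p values were 0.398 to 0.932. SHMT2 214095_at ranged from -0.55 to -0.38, and its 95% interval included 0 with no filter, with the replicate block and without each array in turn. Since the groups of both probe sets did not overlap, only quantile normalization and median centring could have changed a sign, and neither did. Same-numbered arrays did not deviate together (r = 0.00375 and 0.0131 across probe sets), and with the replicate block the limma adjusted p of ALDH1L2 was 0.698 and 0 probe sets passed on either type; the block changed no call.

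The member median on the first type, over all 14 probe sets with the 2 untested, ranged from -0.01 to 0.08 when each array was left out. On the second, over all 7 with the 2 untested, it ranged from -0.34 to -0.19. With median centring, which shifted all fold changes of that type by -0.102, it was -0.39. Of 182 recomputed member values on the first type 18 changed sign, 6 of them of the 2 untested probe sets. On the second 4 of 91 did, 2 of them of its untested probe sets. These totals include the changed filters, the variance trend, the robust prior and the replicate block. Those settings leave every fold change as it was, so the totals overstate how many values could have turned. PSPH 205048_s_at gave -0.011 with quantile normalization and -0.0076 with median centring, MAT2A 213705_at -0.026 and MTHFD1L 225520_at 0.016 with quantile normalization. When each array was left out, MAT2A 200769_s_at ranged from -0.21 to 0.44, MAT2A 213705_at from -0.20 to 0.36, PSPH 205048_s_at from -0.19 to 0.23, SHMT2 214096_s_at from -0.079 to 0.036, MTHFD2 201761_at from -0.19 to 0.033, MTHFD1 202309_at from -0.039 to 0.13 and MTHFD1L 225520_at from -0.25 to 0.18. The cause of these changes was not tested. Signal near background limits PHGDH, SHMT1 217304_at, PSPH 244819_x_at and MTHFD1 239846_at, which the test left out and whose sign changed under at least 1 alternative.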
